A study of Mus musculus with 8 samples.

Results

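Lrmp, Gnat3 and Chat are 3 of the 1428 genes listed in the deposited comparison of mouse colon tumours, and all 3 are known from tuft cells. They were taken by gene name, and all 3 names were found. The tumours came from miR-29ab1Vilin-KO mice (KO, 4 libraries), in which miR-29ab1 was disrupted in the gut epithelium according to the series text, and from wild-type mice (WT, 4 libraries), all of the C57BL/6N strain. That text names azoxymethane, which mutates DNA, and dextran sodium sulfate, an agent that damages the mucosa of the colon, as the inducers of the tumours. The ages of the mice, the alleles that WT mice carry and whether each library came from a separate animal are not stated in what was at hand, so any p-value reflects library-to-library spread, in which technical and animal differences cannot be told apart. The targeted microRNA genes Mir29a and Mir29b-1 are not among the listed genes, so the KO label was not checked against them.

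Tuft cells are rare chemosensory cells of the gut epithelium. They detect luminal compounds with the machinery of taste cells, in which a receptor acts through the G protein subunit Gnat3 (gustducin), phospholipase C and inositol trisphosphate receptors to open the cation channel Trpm5. They release cytokines, eicosanoids and acetylcholine, and acetylcholine is made by Chat, choline acetyltransferase. Lrmp, also named Irag2 or Jaw1, is a membrane protein of the endoplasmic reticulum that associates with inositol trisphosphate receptors. It was described in lymphoid cells, including germinal centre B cells, and it is also known from taste and tuft cells. Chat is also made by enteric neurons. In these libraries, which are of whole tumours, more cells of a type and more RNA per cell cannot be told apart.

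The microRNAs of the targeted cluster, miR-29a-3p and miR-29b-3p, and their relative miR-29c-3p, which is encoded elsewhere, are shown because their seed defines which transcripts they can pair with. Capitals mark the seed, bases 2 to 8. The sequences are from RefSeq on GRCm38.p6.
mmu-miR-29a-3p: uAGCACCAucugaaaucgguua
mmu-miR-29b-3p: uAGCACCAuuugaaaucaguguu
mmu-miR-29c-3p: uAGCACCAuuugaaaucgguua
All 3 share one seed. The genes for miR-29a-3p and a copy of miR-29b-3p lie together on chromosome 6, and a second gene for miR-29b-3p lies beside that for miR-29c-3p on chromosome 1, so the same seed is also encoded outside the cluster named in the KO label. The letters TGGTGCT, which pair with that seed, occurred 0 times in the longest annotated 3′ untranslated region of Lrmp (254 bases), Gnat3 (166 bases) and Chat (542 bases) in GENCODE M21. Among 21007 genes with such a region, whose median length was 961 bases, 13.1% held the letters.

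Lrmp was the abundant member and the one that was high in every KO library. It had 919.7, 1179, 747 and 814 normalized counts (read counts divided by a size factor per library) in KO replicates 1 to 4, against 299, 536, 452 and 428 in WT replicates 1 to 4. The lowest KO library lay above the highest WT library, and the highest library of each group was replicate 2. The means were 915 ± 190 in KO and 428.7 ± 98.4 in WT (SD, n = 4 each), a ratio of 2.13. The spread within a group was narrow, with the highest KO library 1.58 times the lowest KO library and the highest WT library 1.80 times the lowest. Leaving out KO replicate 4 gave a ratio of 2.21.

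Gnat3, the G protein subunit of the taste pathway, was scarce and was high in part of the KO libraries. It had 3.86, 18.2, 4.45 and 85.1 normalized counts in KO replicates 1 to 4, against 4.86, 2.06, 6.07 and 1.01 in WT replicates 1 to 4. KO replicates 1 and 3 lay inside the WT range, so the groups overlapped, while KO replicates 2 and 4 lay above it. The KO values rest on 4, 17, 5 and 87 whole reads and the WT values on 5, 2, 6 and 1. The exact 95% Poisson interval, which covers counting error alone, was 9.90 to 27.2 reads in KO replicate 2 and 69.7 to 107 in KO replicate 4, and the highest WT library, with 6 reads, had an interval of 2.20 to 13.1. KO replicate 4 thus lay clear of every WT interval, and the interval of KO replicate 2 overlapped that of the highest WT library. The means were 27.9 ± 38.7 in KO and 3.50 ± 2.36 in WT (SD, n = 4 each), a ratio of 7.98 that was 2.53 without KO replicate 4.

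Chat, the enzyme that makes acetylcholine, was the scarcest member and had no read in WT. It had 1.93, 10.7, 0.89 and 39.1 normalized counts in KO replicates 1 to 4, from 2, 10, 1 and 40 reads, against 0 in each of the 4 WT libraries. All KO libraries were above 0, but replicates 1 and 3 were above it by 2 reads and 1 read. The KO mean was 13.2 ± 17.9 (SD, n = 4), and it was 4.51 without KO replicate 4. Set against the 3 reads that a count of 0 allows over the WT group, a level of 0.754 normalized counts, the KO mean was 17.5-fold higher. Without KO replicate 4 it was 5.98-fold higher. These ratios allow for counting error in WT alone and not for the spread of the KO libraries, of which replicate 3 had 0.89. They are thus no lower bounds. A single WT library with 0 reads has an exact 95% Poisson upper bound of 3.69 reads, above the counts of KO replicates 1 and 3.

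**Figure D1:**
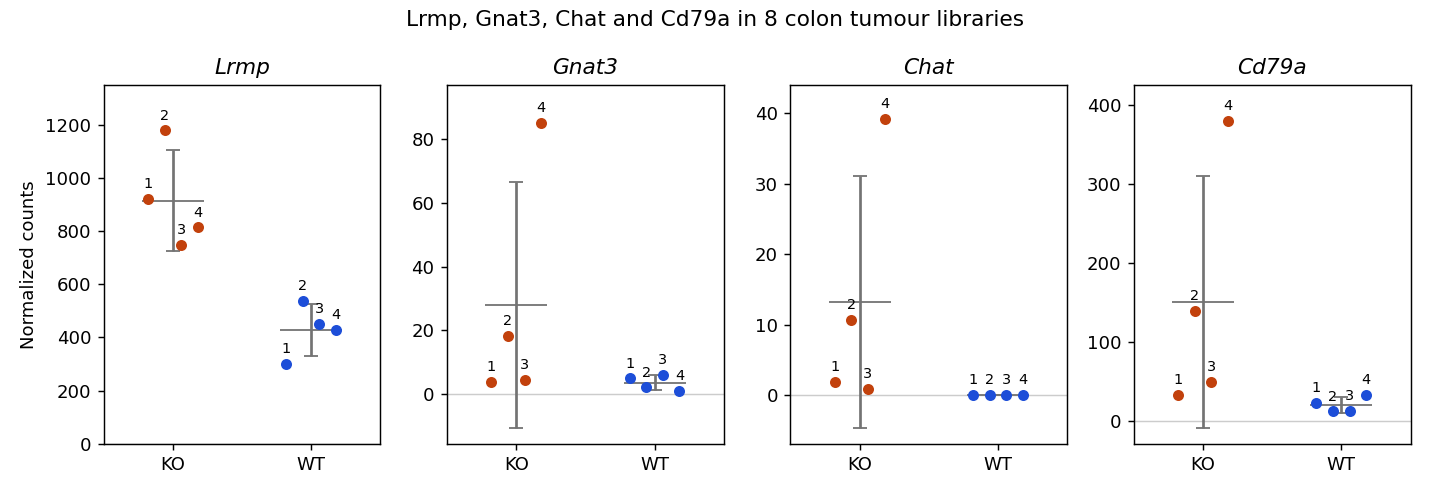
Normalized counts of Lrmp, Gnat3, Chat and Cd79a in each library (points, numbered by replicate) with the group mean and SD (grey, n = 4). Every KO library lies above every WT library for Lrmp, for Chat and, by little, for Cd79a, but not for Gnat3. Gnat3, Chat and Cd79a are highest in KO replicate 4 and next highest in KO replicate 2, whereas Lrmp is highest in KO replicate 2.

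**Figure D2:**
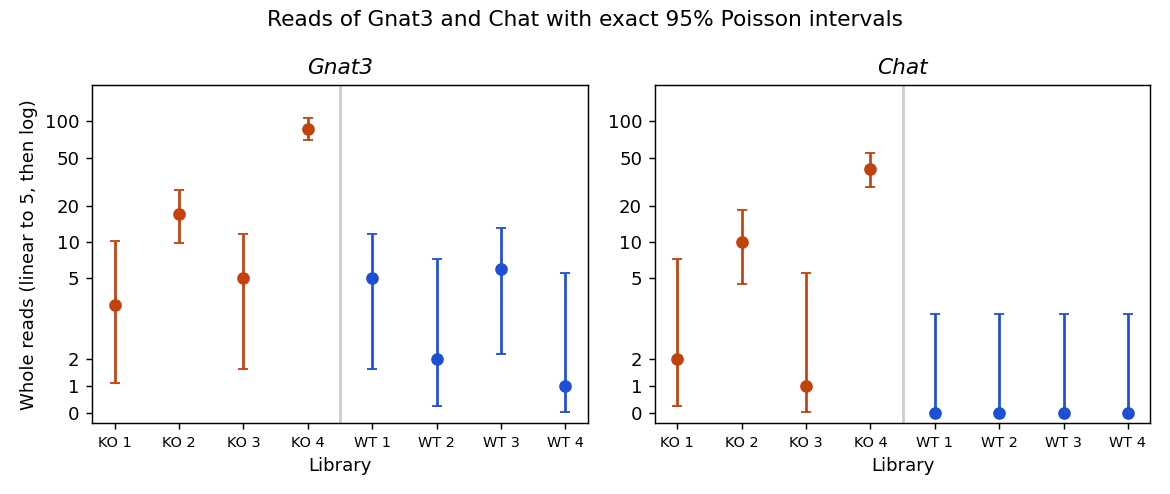
Whole reads of Gnat3 and Chat in each library with exact 95% Poisson intervals, on an axis that is linear to 5 reads and logarithmic above. KO replicate 4, at 87 and 40 reads, stands clear of the WT libraries in both genes, while KO replicates 1 and 3 have 4 and 5 reads of Gnat3 and 2 and 1 of Chat.

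Per kilobase of the gene length given in the table, the level of Lrmp was 225 ± 46.6 normalized counts in KO and 105 ± 24.2 in WT (SD, n = 4 each). Gnat3 stood at 20.5 ± 28.4 per kilobase in KO and 2.57 ± 1.74 in WT. The level of Chat per kilobase was 4.69 ± 6.36 in KO, with 0 in WT. The order of the 3 members was thus the same in both groups. Among the KO libraries the Lrmp level exceeded that of Gnat3 by more than the spread of either, while the difference between Gnat3 and Chat was smaller than the spread of Gnat3.

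In the authors' deposited table the log2 fold change of KO over WT was 1.09 for Lrmp, 2.99 for Gnat3 and 6.15 for Chat. Their adjusted p-values there, which come from DESeq2, were 0.0461 for Lrmp, 0.43 for Gnat3 and 0.185 for Chat. The adjusted values imply 19985 tested genes, of which 4.09% are listed as higher in KO with an unadjusted p below 0.05, as all 3 members are, and 0.0300% as higher with an adjusted p below 0.05. Lrmp is 1 of these 6 genes, and Gnat3 and Chat are not among them. The 3 genes were chosen from this contrast, so these values describe them and are no further test. The deposited fold change of Chat depends on how a group of zeros was fitted and is no bound. The call of Lrmp was lost in an edgeR quasi-likelihood refit of the listed genes, at an adjusted p of 0.867, and kept in a DESeq2 refit, at an adjusted p of 0.022. The groups did not overlap for Lrmp and Chat, 2 of the 3 members, as in 41.3% of the 829 genes listed higher in KO.

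In the coordinates of the table, which follow a C57BL/6NJ annotation by its identifiers, Lrmp lies on the plus strand of chromosome 6 from 154143988 to 154208703. Gnat3 lies on the plus strand of chromosome 5 from 16662959 to 16727114, and Chat on the minus strand of chromosome 14 from 26672598 to 26736183. All 3 are annotated as protein-coding. In GENCODE M21, Chat overlaps Slc18a3, the vesicular acetylcholine transporter, on its own strand and Gm2990 on the other, and Lrmp overlaps Casc1 and Gm43910 on the other strand. No overlapping gene was found for Gnat3. The sources used here do not say whether reads were counted by strand, so reads of Lrmp or Chat and of an overlapping gene may have been shared; Slc18a3 itself was not listed.

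Promoter windows are shown for Gnat3 and Chat, the members that were highest in KO replicate 4 and next in KO replicate 2; Lrmp had no entry among the windows. They run from 250 bases before to 50 bases after the RefSeq start on GRCm38.p6. Both strands were searched for the octamer ATGCAAAT, bound by POU factors such as Pou2f3 of tuft cells and Pou2f2 of B cells, and for its last 7 letters TGCAAAT, every match of the octamer being also a match of the shorter form. Capitals mark the shorter form.
Gnat3, chr5:17962320-17962619, plus strand: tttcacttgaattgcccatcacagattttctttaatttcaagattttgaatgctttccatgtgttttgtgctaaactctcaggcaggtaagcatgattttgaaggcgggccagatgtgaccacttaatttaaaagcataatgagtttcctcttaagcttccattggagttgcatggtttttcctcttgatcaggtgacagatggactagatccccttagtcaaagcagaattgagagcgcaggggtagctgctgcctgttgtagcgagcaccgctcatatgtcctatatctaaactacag
Chat, chr14:32465860-32466159, minus strand: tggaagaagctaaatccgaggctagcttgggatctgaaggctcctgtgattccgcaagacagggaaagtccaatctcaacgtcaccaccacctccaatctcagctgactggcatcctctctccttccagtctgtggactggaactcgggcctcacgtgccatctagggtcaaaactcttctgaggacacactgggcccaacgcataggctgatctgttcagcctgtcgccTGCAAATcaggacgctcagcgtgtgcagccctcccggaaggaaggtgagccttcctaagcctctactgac
The octamer was in neither window, nor in those of Trpm5, Sh2d7 and Cd79a, and 1.74% of 32851 windows of this length held it. The shorter form was in the Chat window, 20 bases before the start, and in none of the other 4; it was in 4.02% of all windows. A match is a run of letters and not evidence of binding, and the absence of a match says only that these letters are not in the window.

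Of 49 symbols on a list of tuft cell identity genes and a list of taste-type signalling genes, 10 were listed, among them Lrmp, Gnat3 and Chat, which were chosen from this contrast. Of the 7 others, 4 were higher and 3 lower in KO, near the 58.1% of the 1428 listed genes that are higher, and none passed an adjusted p of 0.05. By the authors' deposited table their median log2 fold change was 1.20, against 0.48 over all listed genes. The value of 1.20 is that of Trpm5, whose ratio of means was 1.18 without KO replicate 4. Every listed gene was selected by p below 0.05 in this same contrast, so the medians are descriptions and no test. The other 39 were not listed, among them the defining tuft cell genes Dclk1, Pou2f3, Gfi1b and Il25 and the signalling genes Plcb2, Itpr3 and Gng13, and their levels are not analysed here. No member was listed of 11 eicosanoid synthesis genes of tuft cells. The tuft cell label could thus be set beside only 7 further genes, which lay on both sides of WT.

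Trpm5, the channel at the end of the taste pathway, had 94.5, 122, 53.4 and 432 normalized counts in KO replicates 1 to 4, against 79.8, 45.2, 106 and 74.9 in WT replicates 1 to 4. KO replicates 2 and 4 lay above the WT range, by little in replicate 2, and KO replicates 1 and 3 did not. Its ratio of means was 2.30 with all libraries and 1.18 without KO replicate 4. Sh2d7, an adaptor protein known as a tuft cell marker, had 16.4, 36.4, 9.79 and 237 in KO replicates 1 to 4, against 11.7, 10.3, 17.2 and 17.2 in WT replicates 1 to 4. It showed the same split of the KO libraries, and its ratio of means was 5.31 with all libraries and 1.48 without KO replicate 4.

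Spib, a transcription factor of tuft cells that B cells use as well, averaged 154 ± 203 in KO and 32.6 ± 24.2 in WT (SD, n = 4 each), with 451 in KO replicate 4 and a ratio of means of 1.68 without that library. Bche, which hydrolyses choline esters and was the only listed cholinergic gene besides Chat of 14, averaged 160.3 ± 134 in KO and 64.0 ± 41.1 in WT, a ratio of 2.51 that was 1.52 without KO replicate 4. It too was highest in that library, at 350.3, and the KO and WT ranges overlapped.

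The remaining listed genes of these lists did not share that order. Adgrg6, an adhesion receptor, was higher in KO, at 109.6 ± 91.1 against 43.0 ± 19.8 in WT. It had 229 in KO replicate 3 and 14.7 in KO replicate 4, by little below every WT library. Its ratio of means was 2.55 with all libraries and 3.29 without KO replicate 4. Cd24a, a surface protein of many epithelial cells, averaged 10340 ± 1450 in KO and 14270 ± 1930 in WT, and Ascl2, better known as a stem cell regulator, 767.2 ± 92.3 in KO and 1060 ± 151 in WT. Gnb3, the G protein beta subunit that partners Gnat3 in taste cells, went the other way from Gnat3, with 0.95 ± 0.79 in KO and 7.32 ± 8.33 in WT; WT replicate 4 held 19.2 normalized counts and the WT mean was 3.35 without it.

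**Figure D3:**
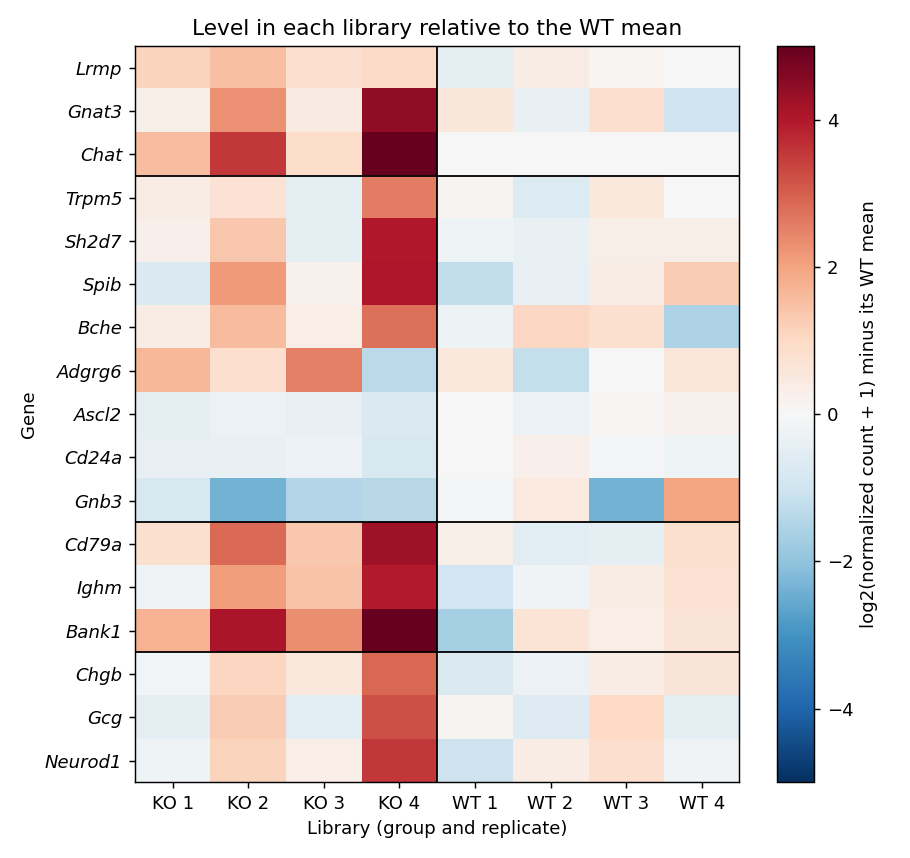
log2(normalized count + 1) of each listed gene minus its WT mean, by library, for the members (top), other listed tuft, taste and cholinergic genes, B cell genes, and enteroendocrine genes (bottom). Lrmp is raised by a like amount in all 4 KO libraries, while Gnat3, Chat, Trpm5, Sh2d7, Spib, Cd79a and Chgb are highest in KO replicate 4.

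The next comparison asked whether Lrmp follows the scarce tuft cell genes or Cd79a, a B cell receptor component, from library to library. Cd79a had 33.7, 139, 49.8 and 379.6 normalized counts in KO replicates 1 to 4, against 23.3, 12.3, 13.1 and 33.4 in WT replicates 1 to 4. Its KO libraries ran in the order 4, 2, 3, 1, as did those of Gnat3, and those of Chat in the order 4, 2, 1, 3. Those of Lrmp ran in the order 2, 1, 4, 3. Between KO replicates 1 and 3, counting error leaves the order open for Gnat3, with 4 and 5 reads, and for Chat, with 2 and 1. KO replicate 4 was highest and KO replicate 2 next in 37.9% of the 829 genes listed higher in KO, and KO replicate 2 was highest in 6.15%.

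As a multiple of the WT mean, KO replicate 1 held 2.15 for Lrmp, 1.10 for Gnat3 and 1.64 for Cd79a. KO replicate 4 held 1.90 for Lrmp, 24.3 for Gnat3 and 18.5 for Cd79a. Lrmp was thus no higher in KO replicate 4, with the most Gnat3, Chat and Cd79a, than in KO replicate 1, with the least Cd79a among KO libraries. In KO replicate 2 the multiples were 2.75 for Lrmp, 5.21 for Gnat3 and 6.78 for Cd79a, and in KO replicate 3 they were 1.74 for Lrmp, 1.27 for Gnat3 and 2.42 for Cd79a. Among WT libraries Lrmp was lowest in replicate 1, where Cd79a and Gnat3 were each second highest, and highest in replicate 2, where Cd79a was lowest. The Poisson intervals of Gnat3 in the WT libraries all overlap one another, so the WT order of Gnat3 is open.

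Relations were computed over the 8 libraries on log2(normalized count + 1) after each group's mean was subtracted, so that the difference between KO and WT did not enter. The 8 libraries share 2 groups, and all genes of a library share its size factor. Exact permutation tests within groups, two-sided, used 576 orders, of which the smallest possible p is 0.00174, and p-values were adjusted over the 3 relations by the Benjamini-Hochberg method. Lrmp with Gnat3 gave r = -0.08 (exact permutation p = 0.877, adjusted 0.877) and rho = -0.02 (exact permutation p = 0.979). Lrmp with Cd79a gave r = -0.11 (exact permutation p = 0.811, adjusted 0.877) and rho = -0.07 (exact permutation p = 0.898). Neither relation passed the threshold, which with 8 libraries does not show that none exists. Gnat3 in WT rests on 1 to 6 reads per library, so counting error enters its WT deviations. The sign of both is not settled, since without KO replicate 4 r was 0.17 for Lrmp with Gnat3 and 0.09 for Lrmp with Cd79a, without WT replicate 1 it was 0.07 for Lrmp with Gnat3, and without WT replicate 2 it was 0.01 for Lrmp with Cd79a. Without KO replicate 2 and WT replicate 1, the libraries farthest out in Lrmp, r was -0.07 with Gnat3 and -0.36 with Cd79a.

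Gnat3 with Cd79a gave r = 0.76 (exact permutation p = 0.106, adjusted 0.318) and rho = 0.67 (exact permutation p = 0.17), which did not pass either. It rests on the KO libraries at the ends, since r was 0.37 without KO replicate 4 and 0.18 without KO replicates 1 and 4. Without WT replicate 4 it was 0.95, with an exact permutation p of 0.0347 and an adjusted p of 0.104. No correlation is given for Chat, which varied in the 4 KO libraries alone. For the better-counted tuft and taste genes, r with Lrmp was -0.11 for Trpm5, 0.03 for Sh2d7 and 0.21 for Spib. Over 5 listed tuft cell identity genes, without Lrmp and Chat, it ran from -0.30 to 0.24 with a median of 0.03. For Gnat3, r was 0.89 with Trpm5. Over 6 listed tuft cell identity genes, Lrmp included, it ran from -0.78 for Adgrg6 to 0.88 for Sh2d7, with a median of -0.23. These values carry no p-value.

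**Figure D4:**
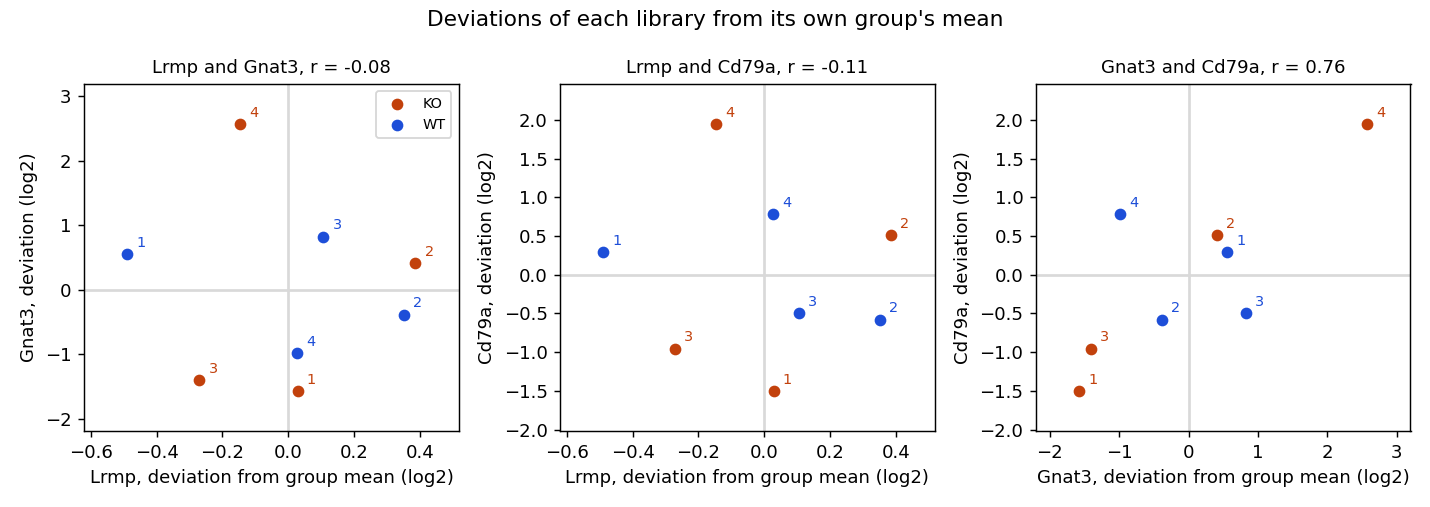
Each library's log2(normalized count + 1) minus its own group's mean, for Lrmp against Gnat3, Lrmp against Cd79a and Gnat3 against Cd79a, with replicate numbers. KO replicate 4 is far above its group's mean in Gnat3 and Cd79a and slightly below it in Lrmp.

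Of the 21 symbols of the B cell list, 18 were listed, all 18 higher in KO, 1 of them, Bank1, past an adjusted p of 0.05, and in 15 KO replicate 4 was highest and replicate 2 next. Of all 1428 listed genes 58.1% were higher in KO, and 37.9% of the 829 higher ones had that order. Of the 19985 tested genes 0.0300% were higher in KO past an adjusted p of 0.05. For the 18 B cell genes, r with Lrmp ran from -0.72 to 0.48 with a median of -0.02, and r with Gnat3 from -0.22 to 0.93 with a median of 0.71. The summed level of the 18 genes was 333, 1388, 530 and 4448 normalized counts in KO replicates 1 to 4, against 229, 174, 263 and 421 in WT replicates 1 to 4, and KO replicate 1 lay inside the WT range. The ratio of their mean sums was 6.17 with all libraries and 2.76 without KO replicate 4, and for Cd79a alone the ratio was 7.33 with all libraries and 3.62 without that one. Of 18 germinal centre B cell symbols 2 were listed, Lrmp and Mybl1, and the other 16 give no level to set beside Lrmp. Mybl1, a transcription factor of germinal centre B cells, was listed lower in KO and averaged 70.99 ± 9.68 in KO and 101 ± 14.6 in WT (SD, n = 4 each).

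The sums of the few listed plasma cell and T cell genes rested less on KO replicate 4 than that of the B cell genes. Listed were 2 of 13 plasma cell genes, Ighg2b and Irf4, and 3 of 16 T cell genes, Trbc1, Cd4 and Cd8b1, all higher in KO. Over the 1428 listed genes 58.1% were higher. The summed level of the plasma cell genes was 432, 488, 211 and 543 normalized counts in KO replicates 1 to 4, against 117, 125, 194 and 113 in WT replicates 1 to 4. That of the T cell genes was 127, 144, 132 and 159.5 in KO replicates 1 to 4, against 59.3, 78.1, 70.8 and 72.8 in WT replicates 1 to 4. In both sums every KO library lay above every WT library, for the plasma cell genes by little (211 in KO replicate 3, 194 in WT replicate 3). Of the 829 genes listed higher in KO, 41.3% were separated in this way. Lrmp and the B cell genes Cd79a, Bank1 and Pou2af1 were among them, and the B cell genes Spib and Ighm were not. The ratio of mean sums without KO replicate 4 was 2.74 for the plasma cell genes and 1.91 for the T cell genes, against 3.05 and 2.00 with it. The T cell sum combines opposite members in that library, where Cd4 and Cd8b1 were highest, at 88.1 and 10.8, and Trbc1 lowest, at 60.7. Without KO replicate 4 the ratio fell from 2.51 to 1.85 for Cd4 and rose from 1.70 to 1.86 for Trbc1. The groups did not overlap for Irf4, a transcription factor of plasma cells and activated lymphocytes, for Trbc1, a T cell receptor constant segment, or for Cd4. They overlapped for Cd8b1, which had 0 reads in KO replicate 2 and 1 read in WT replicate 4. Ighg2b, an immunoglobulin heavy chain constant segment, overlapped between groups and had an adjusted p of 0.0461 in the authors' deposited table. With Lrmp, r over the 8 libraries was 0.52 for Trbc1, 0.46 for Ighg2b, 0.08 for Cd4, 0.00 for Irf4 and -0.38 for Cd8b1. The highest value of a B cell gene was 0.48, for Bank1, between those of Trbc1 and Ighg2b. Hdac4, a gene of neither list, had 0.46, and Polr3gl, the listed gene most like Lrmp, had 0.85. These are descriptions of single genes with no p-value, and the part of plasma cells and T cells in the level of Lrmp was not tested.

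Of 18 enteroendocrine symbols 3 were listed, Gcg, Chgb and Neurod1, all higher in KO, as were 58.1% of the 1428 listed genes. In all 3, KO replicate 4 was highest and replicate 2 next, as in 37.9% of the 829 genes listed higher in KO. The summed level of the 3 genes was 274, 667, 414 and 2412 normalized counts in KO replicates 1 to 4, against 207, 252, 436 and 442 in WT replicates 1 to 4, so that KO replicates 1 and 3 lay inside the WT range. Without KO replicate 4 the ratio of means was 1.39 for Chgb, 1.15 for Gcg and 1.31 for Neurod1, against 2.76, 2.99 and 3.88 with it. None of 18 enteric neuron and glia genes was listed, so that list gives no level to set beside Chat. The part of B cells, of enteroendocrine cells and of KO replicate 4 in the levels of Gnat3 and Chat was not tested.

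Among listed genes with a mean of at least 50 normalized counts (892 genes), those whose deviations were most like those of Lrmp over the 8 libraries were Polr3gl (r = 0.85), Uba2 (0.81), Sms (0.81), Ilf2 (0.81) and Top2a (0.80), against a median r of 0.04. They encode an RNA polymerase III subunit, a SUMO-activating enzyme subunit, spermine synthase, a double-stranded RNA binding factor and a DNA topoisomerase of dividing cells. All 5 were lower in KO than in WT, whereas Lrmp was higher. Among 1118 listed genes with a mean of at least 10, those most like Gnat3 were Gcg (r = 0.98), Cacna1e (0.97), Rimbp2 (0.96), Vipr1 (0.96) and Hpdl (0.96), against a median r of 0.19. Gcg encodes the glucagon precursor of enteroendocrine cells, Cacna1e a calcium channel, Rimbp2 a protein of secretory release sites, Vipr1 a receptor for vasoactive intestinal peptide and Hpdl a dioxygenase-like protein. All 5 were higher in KO, and in each KO replicate 4 was the highest library. These are the top values of many and carry no p-value.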

How the data were processed

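Total RNA of colon tumours was extracted with TRIzol and sequenced with a directional NEBNext kit, per the labels' protocols. HISAT2 and DESeq2 are named, with no version, per the submitters' processing notes, which give the human build GRCh38, whereas the gene identifiers are those of mouse C57BL/6NJ. Coordinates are as the deposited table gives them. The sources used here name no counting tool. The deposited table holds, per the file headers, for 1428 genes a normalized signal per library and the authors' means, log2 fold change, p-value and adjusted p-value, each with p below 0.05. It is a selected list, in which fold changes tend to be overstated. For 18 genes the adjusted p is 1.

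For each library, dividing by one step returned whole reads, within 0.001, for 100% of values, with size factors from 0.933 to 1.12. Over the listed genes these reads sum to 2180787 in KO replicate 4, whose size factor was 1.02. In the other KO libraries they sum to between 1316787 and 1533770, and in WT libraries to between 1202677 and 1268646. These sums are not the depth. The number of tests behind the adjusted p-values was computed from adjusted over unadjusted p at each rank, and 218 of 230 steps lay within 1 of 19985. Recovered reads were refitted with edgeR 4.0.16 and DESeq2 1.42.0, and log2(normalized count + 1) with limma 3.58.1, in R 4.3.3, and adjusted over 19985 genes. Their spread comes from selected genes. The edgeR refit and the computed number of tests were tried on simulated data, and the DESeq2 and limma refits were not. The design was treated as unpaired, since no source pairs libraries by number.

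The members and lists were chosen with earlier results of these data known. Named genes are the members, Cd79a, all listed genes of the tuft, taste, eicosanoid, cholinergic and Lrmp partner lists, at most 3 per other list by mean level, and the 5 genes most like Lrmp and Gnat3. Other symbols only fill counts. The check of octamer letters was chosen after the values were seen. Results for certain genes are left out of this text. Of the sets not described above, listed were 1 of 15 type 2 cytokine circuit genes (lower), 2 of 12 mast cell genes (lower) and 2 of 15 miR-29 genes (1 higher, 1 lower); the Lrmp partner list had Bank1 and Lrmp of 16, both higher.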

Additional observations from a re-analysis of the deposited data

Results flagged for a closer look

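Within a group of 4 libraries, a value whose gap to its nearest neighbour exceeds Dixon's critical share of the group's range is set apart here, and chance does this in about 5% of groups. Of 76 groups over 38 genes, 5 were set apart, 4 of them in KO replicate 4. In KO replicate 4 they were Sh2d7 at 236.8 normalized counts, Cd4 at 88.06, Neurod1 at 91.0 and Cacna1e at 231.9. In WT replicate 4, Cd8b1 stood at 1.01, from 1 read, with 0 in the other WT libraries. Lrmp and Gnat3 were not set apart by this measure in either group, nor was Chat in KO. The WT group of Chat, with 0 in every library, has no range and could not be assessed. Gnat3 still held 85.1 normalized counts in KO replicate 4, against 18.2 in the next KO library.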

How the results depend on the processing

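Lrmp kept its direction in all 15 refits, with log2 fold changes from 0.94 to 1.22, but lost its adjusted p below 0.05 in 14 of them, the exception being the DESeq2 refit. The values were 1.09 in edgeR, 1.09 with a filter of 10 reads in 4 libraries, 0.94 with TMM scaling on the listed genes, 1.10 with the replicate block, 1.10 in limma with a pseudocount of 1 and 1.10 with 0.1, and from 0.95 to 1.22 when 1 library was left out. TMM moved the median log2 fold change over the listed genes by -0.16. Gnat3 and Chat kept their direction in 14 refits each, with adjusted p-values from 0.377 for Gnat3 and 0.184 for Chat up to 1; the filter removed both. Gnat3 ran from 1.29 without KO replicate 4 to 3.33, and was 1.93 with the replicate block; Chat ran from 2.84 to 7.12, with 6.57 with the replicate block. Over the 1428 listed genes, deviations of same-numbered libraries correlated at 0.05, -0.02, -0.19 and -0.24 for numbers 1 to 4. No KO library correlated best with the WT library of its own number. The genes were selected for a difference between the groups, so these values cannot exclude a pairing by number. The edgeR refit called 0 genes with and without the block, with 559 and 1112 at an unadjusted p below 0.05; limma called 0 and DESeq2 37. The relation of Lrmp with Gnat3 ran from -0.31 to 0.17 with 1 library left out and that of Lrmp with Cd79a from -0.30 to 0.09, with 2 sign changes each; the cause was not tested. The relation of Gnat3 with Cd79a ran from 0.37 to 0.95 and stayed positive. With TMM scaling on the listed genes the relations were -0.34 for Lrmp with Gnat3, -0.31 for Lrmp with Cd79a and 0.74 for Gnat3 with Cd79a. With pseudocounts of 0.1 and 10 they were -0.09 and -0.07 for Lrmp with Gnat3, -0.12 and -0.07 for Lrmp with Cd79a, and 0.70 and 0.89 for Gnat3 with Cd79a. None of these passed the threshold. Counts of Gnat3 and Chat are limited by their few reads.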
